A study of Mus musculus with 3 samples.

Results

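Perineurial cells were followed among the mesenchymal cells of mouse sciatic nerve, in injured and in uninjured tissue profiled by Drop-seq, a droplet method in which every captured transcript is marked with the barcode of its cell and with its own molecular identifier (UMI). A cell was chosen by measured values: each mesenchymal table was scored alone for 6 perineurial genes (Slc2a1, Itgb4, Cldn1, Msln, Lypd2 and Moxd1), 4 endoneurial genes (Sox9, Osr2, Etv1 and Apod) and 4 epineurial genes (Pcolce2, Clec3b, Dpp4 and Pi16), and a cell became a member when the perineurial score was the highest of the 3 and above 0.5. The rule took 101 of 1289 cells (7.84%, 6.43 to 9.44) in the injured table and 65 of 880 cells (7.39%, 5.75 to 9.32) in the uninjured table. These 166 members came from 7180 barcodes deposited for the 3 libraries of the series. Ranges in brackets are 95% intervals and cover counting error only.

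The injured table came from adult CD1 mice, from the nerve's distal segment 9 days after resection, and the uninjured table from uninjured sciatic nerve of adult CD1 mice. Collagenase and trypsin were used for dissociation, and both libraries passed through myelin removal beads. A further injured library was sorted by FACS from CD1 and C57BL/6 nerves and serves here as an alternative. Its mesenchymal cells were called here by a model and not by the authors. With 1 library per group, differences have no replicate check, no p-value is given, and injury cannot be told apart from library or animal. The sources used here do not say whether animals were pooled. The uninjured table holds the cells that the authors predicted to be mesenchymal, and the injured table their mesenchymal cells.

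The perineurium is the sheath of flattened cells that wraps each nerve fascicle. Its cells are joined by tight junctions and coated by a basement membrane, so the sheath closes the endoneurial space as part of the blood-nerve barrier. What the fascicle needs from outside therefore crosses through transporters, of which the glucose transporter GLUT1, encoded by Slc2a1, is a widely used perineurial marker. After a nerve is cut, this sheath is interrupted.

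Injured members held 338393 UMIs (median 2912 per cell, 320 to 10211) and uninjured members 137803 UMIs (median 1750, 493 to 6632). The other cells of the same tables had a median of 2795 UMIs in injured and 2124 in uninjured nerve. No barcode was shared between the injured and the uninjured table. The UMIs of all cells in a pool were added up and are given as CPM, the UMIs of a gene per 1000000 UMIs of that pool. The rule of size asked for at least 100 CPM in 1 of 2 pools, a ratio of at least 2-fold and an interval that excluded 1, and "higher" or "lower by the rule of size" refers to it. Genes that reach those 100 CPM are called genes at the floor. A pool at 0 was set at 3 counts over the pool, and the fold is then a lower bound. Mitochondrial transcripts made up 1.68% of injured and 1.51% of uninjured member UMIs.

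The members' label was examined first through the genes that chose them. In GRCm38 these protein-coding genes lie on chromosome 4 from 119108711 to 119137983 (Slc2a1), 11 from 115974709 to 116008412 (Itgb4), 16 from 26356642 to 26371841 (Cldn1), 17 from 25748613 to 25754378 (Msln), 15 from 74732247 to 74734329 (Lypd2) and 10 from 24223517 to 24302790 (Moxd1). Slc2a1 had 582 CPM in injured members and 1299 CPM in uninjured members, beside 17.0 CPM and 25.6 CPM in the other cells of the same tables. Itgb4, the integrin chain that binds laminin in hemidesmosomes, had 402 CPM in injured members and 1829 CPM in uninjured ones. Cldn1, a claudin of tight junctions, had 813 CPM in injured members against 1313 CPM in uninjured ones. The defining markers were thus present in both pools, at lower levels in the injured one. Msln, which encodes mesothelin, had 260 CPM in injured members and 493 CPM in uninjured ones. Lypd2, of the Ly6 family, had 361 CPM in injured members against 1161 CPM in uninjured ones. Moxd1, of the copper monooxygenase family, was the exception, with 346 CPM in injured members and 276 CPM in uninjured ones. All of these values describe the rule and carry no test.

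**Figure D1:**
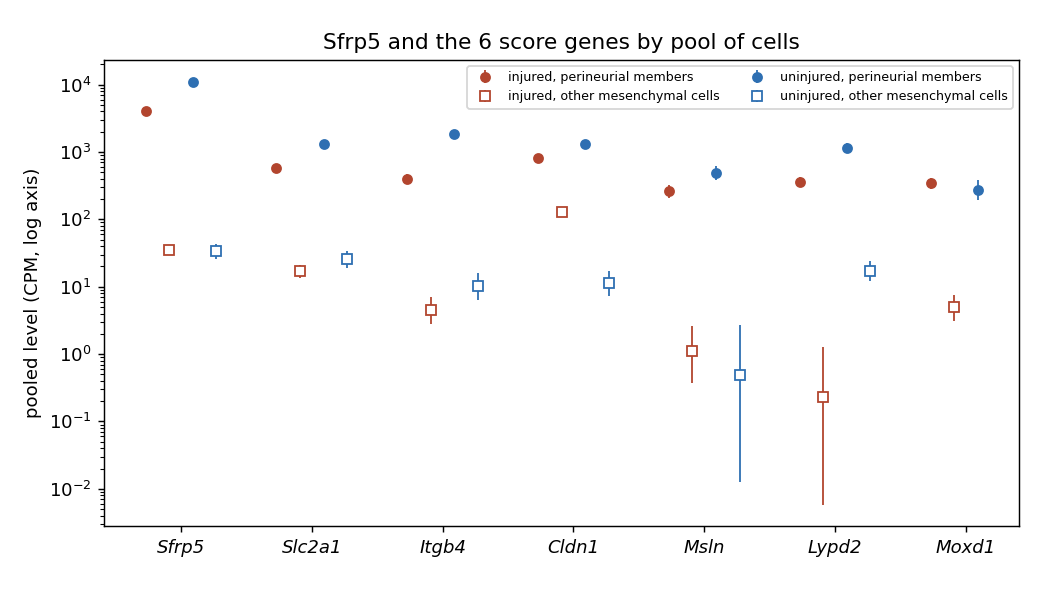
Pooled level in CPM (log axis) of Sfrp5 and the 6 score genes in injured and uninjured perineurial members (filled) and in the other mesenchymal cells of the same tables (open), with exact 95% Poisson intervals. Moxd1 had 0 UMIs in uninjured other cells and has no point there, and Sfrp5 stands at 4066 CPM in injured members and 10769 CPM in uninjured members, beside 35.2 and 33.5 CPM in the other cells.

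The injured members were a looser set than the uninjured ones. All 6 score genes were detected in 9 of 101 injured and 10 of 65 uninjured members, and at least 3 of them in 57 injured and 53 uninjured members. Members with 1 or 2 detected genes numbered 11 and 33 in the injured table and 2 and 10 in the uninjured table. Of the 33 injured members with 2 genes, 30 held Cldn1 and 20 held Moxd1. Cldn1 was also frequent outside the members in injured nerve, with 127 CPM in other injured cells against 11.3 CPM in other uninjured cells, a log2 ratio of 3.49 that is higher by the rule of size. The 3 lowest member scores were 0.504, 0.514 and 0.54 in injured and 0.603, 0.806 and 0.906 in uninjured nerve, while the highest perineurial scores below the threshold were 0.483, 0.479 and 0.477 in injured and 0.486, 0.475 and 0.474 in uninjured nerve. Because of this difference each count over all genes or over a gene list, injured against uninjured, is also given for the 57 injured and 53 uninjured members with at least 3 score genes, a subset chosen after the data were seen and called the core members below. Where a gene's change after injury passed in all members but not in core members, that is said of the gene.

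**Figure D2:**
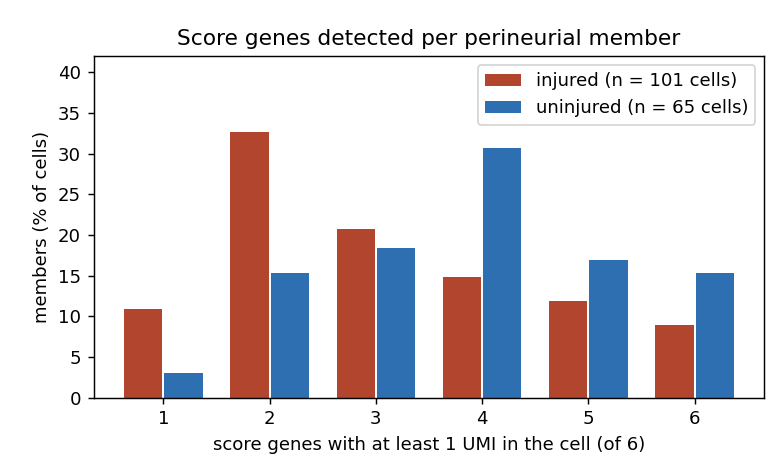
Share of perineurial members (% of cells) by the number of score genes with at least 1 UMI, in the injured table (n = 101 cells) and the uninjured table (n = 65 cells). The most frequent number was 2 genes in injured members (33 cells) and 4 genes in uninjured members (20 cells).

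The share of cells that held a score gene was lower in injured members for 4 of the 6 genes (Slc2a1, Itgb4, Msln and Lypd2). Itgb4 was detected in 39.6% of injured and 83.1% of uninjured members, against 1.52% and 2.21% of other cells. Lypd2 was detected in 37.6% of injured and 73.8% of uninjured members, against 0.0842% and 1.72% of other cells. With each cell thinned to 1000 UMIs, which leaves 88 injured and 51 uninjured members, Itgb4 was found in 31.8% of injured and 66.7% of uninjured members and Lypd2 in 23.9% and 54.9%. Cldn1 was found in 81.2% of injured and 75.4% of uninjured members, and in 55.7% and 60.8% after thinning, so its share had no fixed order.

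Sfrp5, which encodes a secreted Wnt antagonist and lies on chromosome 19 from 42197971 to 42202252, was not used by the rule. It had 4066 CPM in injured members and 10769 CPM in uninjured members. Other cells had 35.2 CPM in injured nerve and 33.5 CPM in uninjured nerve. In members Sfrp5 was lower by the rule of size after injury (log2 ratio -1.41, -1.51 to -1.3), and in core members the log2 ratio was -1.06, still past the rule. At 1000 UMIs per cell it was detected in 67.0% of injured and 96.1% of uninjured members, and in 2.26% and 2.11% of other cells.

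Members were set against the other cells of their own table to show what else they share. The rule chose the members in this contrast, so the counts are a description and nothing is read from them. In injured nerve 234 of 2258 genes at the floor were higher in members (10.4%) and 174 were lower (7.71%). In uninjured nerve 646 of 2406 genes were higher (26.8%) and 331 were lower (13.8%). Of the genes higher in members, 185 were so in both tables, which is 79.1% of the injured and 28.6% of the uninjured list. The direction split rests on the scaling: the median log2 ratio over all genes in uninjured nerve was 0.13 with pool totals and -0.01 with TMM factors, under which 346 genes were higher and 542 lower. In injured nerve TMM factors gave 168 genes higher and 240 lower. Core members had 321 genes higher and 251 lower than other cells in injured nerve, and 662 higher and 330 lower in uninjured nerve.

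The genes with the largest ratios in both tables came from several roles. Ntng1, which encodes the axon guidance ligand netrin-G1, had 186 CPM in injured members and 1.36 CPM in other injured cells, and 820 CPM in uninjured members and 5.42 CPM in other uninjured cells. Perp, a component of desmosomes, had 157 CPM against 1.36 CPM in injured nerve and 486 CPM against 3.94 CPM in uninjured nerve. Wnt6, a Wnt ligand, had 171 CPM against 6.13 CPM in injured nerve and 392 CPM against 7.38 CPM in uninjured nerve. Casq2, the cardiac calsequestrin that stores calcium, had 281 CPM against 7.26 CPM in injured nerve and 530 CPM against 9.35 CPM in uninjured nerve. The laminin receptors Itga7 and Bcam belonged to the same set, with log2 ratios of members over other cells of 4.82 and 4.48 in injured and of 7.47 and 5.53 in uninjured nerve. Stra6, a receptor for retinol binding protein, Mpzl2, an adhesion protein of epithelia, Lmo7, Chchd10 and the long noncoding RNA Snhg11 belonged to it too, with log2 ratios between 4.15 (Lmo7) and 5.26 (Snhg11) in injured nerve. Sfrp5 completed the set, with a log2 ratio of 6.85 in injured nerve.

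Injured members were then compared with uninjured members. Over all genes with rows in both tables, 266 of 2485 genes at the floor were higher in injured members (10.7%) and 329 were lower (13.2%). Which direction held more genes rests on the scaling: TMM factors gave 303 higher and 274 lower, and DESeq2 size factors 318 higher and 272 lower. In core members 200 of 2453 genes were higher (8.15%) and 266 lower (10.8%). Of the higher genes 164 were shared, which is 61.7% of the list for all members and 82.0% of that for core members, and of the lower genes 222 were shared (67.5% and 83.5%). The median log2 ratio over genes with at least 10 UMIs was 0.05 in members and -0.03 in core members. In the lists below, a gene that reaches the floor in 1 pool alone is more likely to differ for that reason, so list counts are descriptions to be read beside these shares of all genes.

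All calls among genes of the perineurial barrier were on the lower side. Of 35 barrier junction genes, 11 were at the floor, of which 0 were higher and 5 were lower in injured members (Cldn22, F11r, Gja1, Perp and Jup), with a median log2 ratio of -0.55. Cldn22, a further claudin, had 73.9 CPM in injured members and 363 CPM in uninjured ones. F11r, the junctional adhesion molecule JAM-A, had 236 CPM in injured members against 530 CPM in uninjured ones. Gja1, the gap junction protein connexin 43, had 163 CPM in injured members and 392 CPM in uninjured ones. In core members 3 of the 5 were still lower by the rule of size, while F11r (log2 ratio -0.92) and Jup (-0.73), which encodes plakoglobin, missed the 2-fold limit. Tjp1, the tight junction scaffold ZO-1, had 248 CPM in injured members against 450 CPM in uninjured ones and did not pass the rule. Neither did Cldn1 (log2 ratio -0.69, -0.97 to -0.41), which also chose the members and is part of the list's median.

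Calls among the receptors that hold cells to laminin were on the lower side too. Of 18 integrin and laminin receptor genes, 10 were at the floor, of which 0 were higher and 5 were lower in injured members: Itgb4, Itga7, Bcam, Cd151 and Sgce, with a median log2 ratio of -0.78 over the list. Itgb4 was lower by the rule of size in all members (log2 ratio -2.19, -2.5 to -1.88) and in core members (-1.73), though it also chose the members. Bcam, the Lutheran glycoprotein that binds laminin, had 142 CPM in injured members and 522 CPM in uninjured ones. Itga7, the muscle laminin receptor chain, had 186 CPM in injured members against 522 CPM in uninjured ones. Cd151, a tetraspanin that partners laminin-binding integrins, had 207 CPM in injured members and 501 CPM in uninjured ones. In core members 4 of 10 were lower, all but Sgce, epsilon-sarcoglycan.

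Calls in the basement membrane list went both ways. Of 24 genes, 14 were at the floor, of which 4 were higher and 1 was lower in injured members, with a median log2 ratio of 0.06, and in core members 3 were higher and 1 lower. With the FACS library in place of the injured bead library, 3 were higher and 5 lower, with a median of -0.83. Col18a1, which carries endostatin, had 461 CPM in injured members against 36.3 CPM in uninjured ones (log2 ratio 3.67). Lamb1, a laminin beta chain, had 334 CPM in injured members and 50.8 CPM in uninjured ones (2.72). Hspg2, which encodes perlecan, had 310 CPM in injured members against 131 CPM in uninjured ones (1.25). Lamb3, the beta chain of laminin-332 that Itgb4-containing integrin binds, was the lower one, with 44.3 CPM in injured members and 138 CPM in uninjured ones. The collagen IV chains Col4a1 (1274 CPM in injured, 1096 CPM in uninjured members) and Col4a2 (771 CPM and 682 CPM) and the laminin chain Lama4 (606 CPM and 581 CPM) did not pass the rule. Col15a1, the fourth higher gene, did not pass in core members (log2 ratio 0.32).

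Transport across the sheath divided by gene. Of 24 nutrient transport and efflux genes, 10 were at the floor, of which 7 were lower and 2 higher in injured members, with a median log2 ratio of -1.03, and in core members 4 were lower and 2 higher. Slc2a1 had a log2 ratio of -1.16 (-1.46 to -0.86), but -0.86 in core members, where it missed the 2-fold limit. Slc2a1 also chose the members and is part of the list's count and median. Slc16a1, the lactate transporter MCT1, had 538 CPM in injured members against 1335 CPM in uninjured ones, with a log2 ratio of -1.31 in members and -0.97 in core members, where it missed the limit too. The efflux pumps were lower in both sets: Abcg2 had 130 CPM in injured members and 639 CPM in uninjured ones (log2 ratio -2.3), and Abcb1a, the P-glycoprotein of barrier endothelium, had 160 CPM and 559 CPM (-1.81). The amino acid carriers Slc1a5 (59.1 CPM in injured, 225 CPM in uninjured members) and Slc6a6, the taurine transporter (236 CPM and 581 CPM), were also lower in both sets. Slc38a2 was lower in all members and missed the limit in core members (-0.87). Among the 2 higher genes was Aqp1, a water channel, with 151 CPM in injured members against 29.0 CPM in uninjured ones.

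Of 18 glycolysis genes, 8 were at the floor, of which 0 were higher and 1 was lower after injury, Eno1 (log2 ratio -1.13), which did not pass in core members (-1.05). Of 19 other perineurial genes, 15 were at the floor, of which 2 were higher and 7 were lower in injured members (median log2 ratio -0.92), and in core members 2 were higher and 6 lower. Krt19, a keratin, had 148 CPM in injured members and 428 CPM in uninjured ones. Wnt6 was lower in all members (log2 ratio -1.19) and not in core members (-0.89). Members of this list were chosen with earlier results of these data known, so its direction is no independent evidence.

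Calls among retinoid genes went both ways. Of 16 genes, 8 were at the floor, of which 3 were higher and 1 was lower in injured members (median log2 ratio 0.70). Without cells holding markers of other cell types, 3 were higher and 3 lower (median 0.22), and with the FACS library 3 were higher and 2 lower (median -0.19). Aldh1a3, which makes retinoic acid, had 275 CPM in injured members and 0 UMIs in uninjured members. With 3 counts or 21.8 CPM set there, it was 12.6-fold higher. Crabp2, which carries retinoic acid in the cell, had 378 CPM in injured members and 109 CPM in uninjured ones. Rdh10, a retinol dehydrogenase, had 222 CPM in injured members against 36.3 CPM in uninjured ones. Rbp4, the retinol carrier, was lower, with 35.5 CPM in injured members and 196 CPM in uninjured ones. All 4 passed in core members as well. Aldh1a3 and Rdh10 were also higher in the other cells after injury, with log2 ratios of 3.02 and 3.73.

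The 12 genes with the highest ratios in injured members were Vcan, Col14a1, Fbn2, Lsp1, Penk, Cxcl14, Mest, Ptn, Thy1, Runx1, Igf2 and Timp1, with log2 ratios from 3.86 (Timp1) to 5.5 (Vcan). In the other cells all but Penk (log2 ratio 0.21) and Cxcl14 (0.05) were also higher by the rule of size after injury. The log2 ratios of these shared genes in the other cells ran from 1.38 (Col14a1) to 4.99 (Fbn2). For 10 of the 12, all but Mest and Igf2, the uninjured members held 1 to 3 UMIs. A gene at 0 UMIs there was set at 3 counts and so could rank below a gene with 1 UMI. Aldh1a3 (93 UMIs in injured and 0 UMIs in uninjured members) thus stood at 3.66, below Runx1 (38 UMIs and 1 UMI). Vcan, the matrix proteoglycan versican, on chromosome 13 from 89655312 to 89742509, had 111 UMIs in injured members (328 CPM) and 1 UMI in uninjured members (7.26 CPM), and its log2 ratio of 5.5 ranged from 2.99 to 10.81. Lsp1, a leukocyte and fibroblast actin-binding protein, had 467 CPM in injured members against 14.5 CPM in uninjured ones (log2 ratio 5.01, 3.13 to 8.07). Col14a1, a collagen that binds the surface of fibrils, had 310 CPM and 7.26 CPM (5.42, 2.91 to 10.74). Fbn2, a fibrillin of developing microfibrils, had 293 CPM and 7.26 CPM (5.33, 2.82 to 10.65). Runx1, a transcription factor, had 112 CPM in injured members and 7.26 CPM in uninjured ones (3.95, 1.39 to 9.29). Igf2, a fetal growth factor, had 553 CPM in injured members against 36.3 CPM in uninjured ones. Of these 12 genes, 4 did not pass the rule in core members: Penk, Cxcl14, Ptn and Thy1. Cxcl14, a chemokine, had 158 UMIs in all injured members but 9 UMIs in the injured core members. Ptn, the growth factor pleiotrophin, had 41 UMIs in injured and 1 UMI in uninjured members, and its log2 ratio of 4.06 turned to -0.38 when the tables were scored together and to -0.55 without Moxd1 in the score. Thy1, a surface glycoprotein of fibroblasts and neurons, had 40 UMIs in all injured members and 5 in the injured core members.

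**Figure D3:**
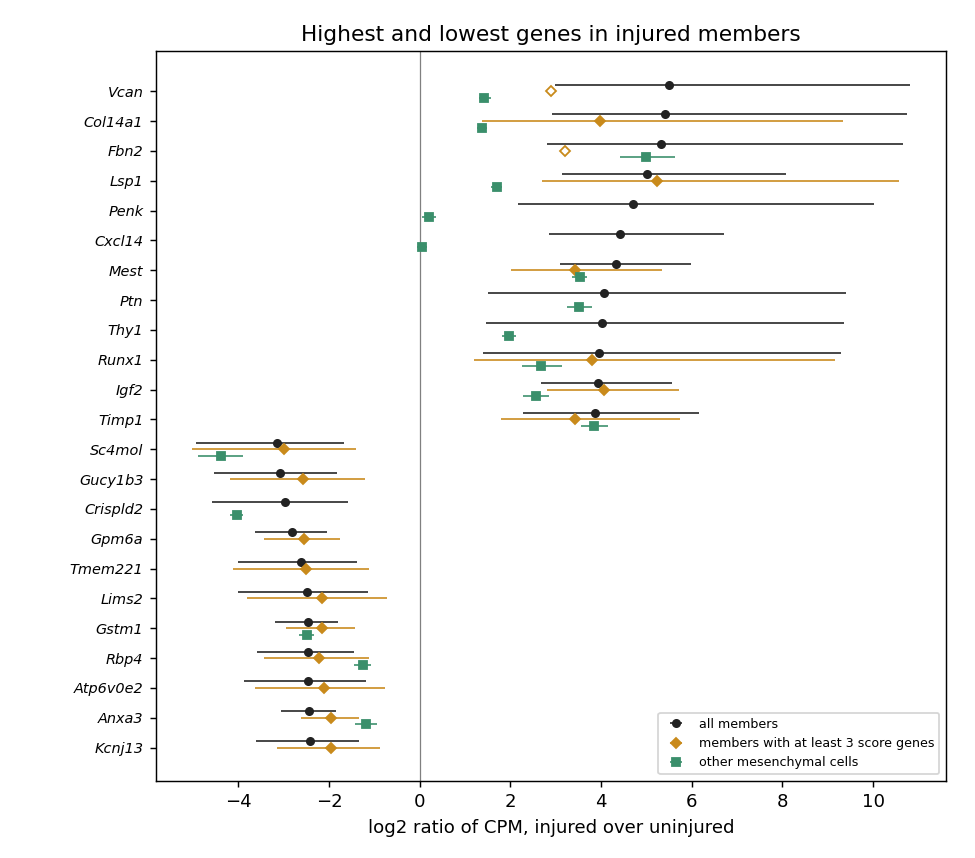
Log2 ratio of CPM, injured over uninjured, of the 12 highest genes and 11 of the 12 lowest in all perineurial members, in members with at least 3 score genes and in the other mesenchymal cells, with exact 95% intervals. Open symbols are lower bounds against 3 counts, and a pool pair below 100 CPM has no point. Gucy1b3 and Gpm6a are among the genes below 100 CPM in the other cells and plotted for members alone, while Mest lies near its ratio in other cells (4.34 in members and 3.53 in other cells).

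The 12 lowest genes included Sc4mol, Gucy1b3, Crispld2, Gpm6a, Tmem221, Lims2, Gstm1, Rbp4, Atp6v0e2, Anxa3 and Kcnj13, and these 11 had log2 ratios from -3.14 (Sc4mol) to -2.42 (Kcnj13). Gpm6a, a membrane glycoprotein best known from neurons, had 59.1 CPM in injured members and 414 CPM in uninjured ones (-2.81, -3.62 to -2.05). Gucy1b3, a subunit of the nitric oxide receptor guanylate cyclase, had 20.7 CPM in injured members against 174 CPM in uninjured ones. Kcnj13, an inward rectifier potassium channel, had 32.5 CPM in injured members and 174 CPM in uninjured ones. Anxa3, an annexin, had 103 CPM in injured members against 559 CPM in uninjured ones. Gstm1, a glutathione transferase, had 79.8 CPM in injured members and 443 CPM in uninjured ones and moved by a like ratio in other cells (98.7 CPM in injured and 553 CPM in uninjured other cells). Also lower by the rule of size in other cells were Sc4mol (log2 ratio -4.37), Crispld2 (-4.03), Rbp4 (-1.25) and Anxa3 (-1.18). The rest of these 11 were below 100 CPM in both pools of other cells and could not be called there. Crispld2 alone of these 11 did not pass in core members, where it had 3 and 12 UMIs.

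Most calls among structural matrix genes were on the higher side. Of 35 collagen and structural matrix genes, 32 were at the floor, of which 14 were higher and 2 were lower in injured members (median log2 ratio 0.88), and in core members 11 of 31 were higher and 1 lower. The FACS library in place of the injured bead library gave 15 higher and 8 lower (median 0.92). Col1a1, a chain of collagen I, had 5237 CPM in injured members against 1865 CPM in uninjured ones. Col3a1, the chain of collagen III, had 6918 CPM in injured members and 2888 CPM in uninjured ones. Col5a1, which nucleates collagen fibrils, had 485 CPM in injured members against 72.6 CPM in uninjured ones. Col1a2 and Col3a1 missed the limit in core members, with log2 ratios of 0.83 and 0.92. In the other cells these collagens did not pass the rule: Col1a1 had 8866 CPM in injured nerve and 8992 CPM in uninjured nerve, and Col3a1 had 17127 CPM and 19525 CPM. Over the whole list, 11 of 34 genes at the floor were higher and 6 lower in the other cells after injury. The 2 lower genes were the small proteoglycans Fmod and Ogn, and Ogn had 1031 CPM in injured members and 2192 CPM in uninjured ones and did not pass in core members (log2 ratio -0.94).

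Of 26 matrix proteases and inhibitors, 15 were at the floor, of which 5 were higher and 0 were lower in injured members, and the same 5 genes passed in core members. Mmp14, the membrane-bound collagenase MT1-MMP, had 1448 CPM in injured members against 421 CPM in uninjured ones. Mmp2, the gelatinase that MMP14 activates, had 606 CPM in injured members and 131 CPM in uninjured ones. Timp1, a metalloprotease inhibitor, had 316 CPM in injured members against 21.8 CPM in uninjured ones. Serpine2, a protease nexin, had 1022 CPM in injured members and 152 CPM in uninjured ones. Adamts9 was the fifth, at the floor with 100 CPM in injured members against 29.0 CPM in uninjured ones.

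Growth factor ligands and the list of differentiating mesenchymal genes held calls on the higher side. Of 45 growth factor ligands, 8 were at the floor, of which 4 were higher and 0 were lower in injured members: Ptn, Mdk, Igf1 and Igf2, while the median log2 ratio of the list was -0.21. In core members 3 of 7 were higher, all but Ptn, whose direction also turned with 2 other ways of scoring. The FACS library in place of the injured bead library gave 4 ligands higher and 2 lower. Mdk, the heparin-binding factor midkine, had 674 CPM in injured members and 58.1 CPM in uninjured ones. Igf1 had 860 CPM in injured members against 116 CPM in uninjured ones. Of 15 differentiating mesenchymal genes, 12 were at the floor, of which 9 were higher and 0 lower (median log2 ratio 2.49). H19, an imprinted noncoding RNA next to Igf2, had 2902 CPM in injured members and 414 CPM in uninjured ones, and Mest, another imprinted gene, had 736 CPM and 36.3 CPM. Cthrc1, a secreted collagen repeat protein, had 204 CPM in injured members and 0 UMIs in uninjured members. With 3 counts set there, it was 9.37-fold higher. In core members 6 of 9 were higher and 1, Cilp, was lower. In the other cells 13 of 14 genes of this list were higher after injury. Of 7 IGF binding proteins, 4 were at the floor. Igfbp6 was lower and Igfbp4 higher: Igfbp6 had 7423 CPM in injured members against 16865 CPM in uninjured ones and Igfbp4 had 1874 CPM and 624 CPM, and neither passed in core members.

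Few sterol synthesis genes were measured. Of 18 genes, 4 were at the floor, in uninjured members alone, so that they could only be lower or not pass, and all 4 were lower in injured members (among them Hmgcs1, Sc4mol and Srebf2), with a median log2 ratio of -2.28, and 3 of 3 in core members. Sc4mol, the older symbol of Msmo1, had 14.8 CPM in injured members and 131 CPM in uninjured ones. In the other cells 6 genes were at the floor, again in uninjured nerve alone, and all 6 were lower. Of 14 hedgehog genes, 3 were at the floor. Gas1, a co-receptor, was lower, with 29.6 CPM in injured members against 174 CPM in uninjured ones, and 54.2% of its UMIs in uninjured members came from 1 cell. In core members Gas1 was lower too, as 1 of 2 hedgehog genes at the floor. Gli1, a hedgehog target, had 127 CPM in injured members and 145 CPM in uninjured ones and did not pass the rule. Of 15 Wnt and BMP antagonists, 7 were at the floor, of which Fstl1 was higher and Sfrp5 and Dkk3 were lower, and of these Sfrp5 alone passed in core members.

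Of 12 contractile genes, 10 were at the floor, of which 1 was lower in injured members (Acta2, not in core members), and of 15 MHC class I and interferon genes 4 were at the floor, of which 0 passed in all or in core members. The FACS library in place of the injured bead library gave 0 contractile genes higher and 7 lower (median log2 ratio -1.42). Of 31 cell cycle genes 0 reached the floor in members, but together they had 1005 CPM in injured members against 167 CPM in uninjured ones, with a median log2 ratio of 1.12 over the 15 genes with at least 10 UMIs. The other cells had like sums, 1016 CPM in injured and 159 CPM in uninjured nerve. In core members 2 of the cell cycle genes were at the floor, of which Top2a, the topoisomerase of dividing cells, was higher. Of 23 chemokines and cytokines, 6 were at the floor, of which 3 were higher in injured members (Ccl7, Cxcl1 and Cxcl14), and 0 of them in core members, where Cxcl12 was lower. Of 24 immediate early and dissociation stress genes, 19 were at the floor, of which 5 were higher and 2 lower in all members, whereas 0 of 18 were higher and 3 lower in core members. Without cells holding markers of other cell types, 10 genes of this list were higher and 1 was lower. The universal fibroblast list of 12 genes likewise had 3 of 9 at the floor higher and 2 lower in all members (higher: Col15a1, Pi16 and Gpx3) and 0 higher and 3 lower in core members.

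**Figure D4:**
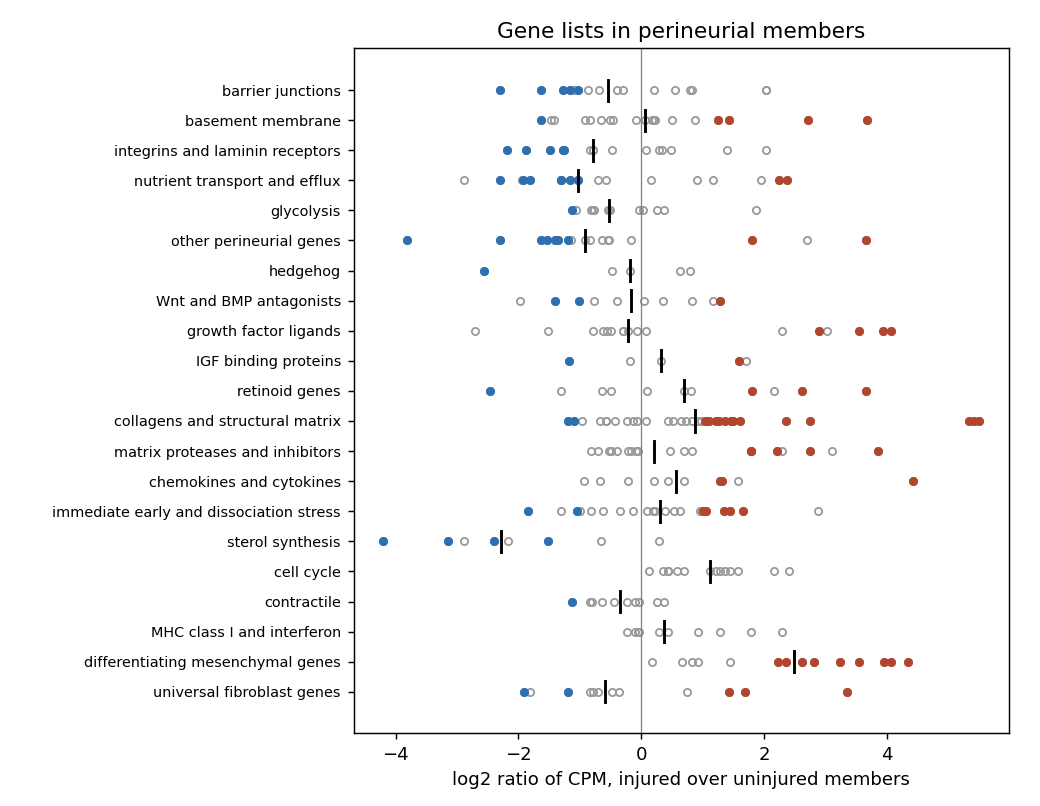
Log2 ratio of CPM, injured over uninjured perineurial members, of each gene with at least 10 UMIs in 21 gene lists. Red points were higher and blue points lower by the rule of size, open points did not pass, and black bars are list medians, from -2.28 for sterol synthesis to 2.49 for differentiating mesenchymal genes. Genes at 0 UMIs in uninjured members are drawn with 3 counts set there.

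Markers of other cells differed between the libraries. Apod, an endoneurial score gene that encodes apolipoprotein D, had 28180 CPM in injured members against 4681 CPM in uninjured ones, beside 49926 CPM and 40616 CPM in other cells. The macrophage or monocyte list together reached 1342 CPM in injured members and 43.5 CPM in uninjured ones, and 85.0% of the UMIs of its leading gene Lyz2 in injured members came from 1 cell. In core members the list had 1832 CPM and 47.7 CPM. At least 3 UMIs of that list were held by 9 of 101 injured and 0 of 65 uninjured members, and 9 of its 12 genes were at 0 in uninjured members. Endothelial markers together reached 387 CPM in injured members against 472 CPM in uninjured ones, led by Cdh5 (192 CPM and 254 CPM), while Pecam1 had 20.7 CPM and 14.5 CPM. At least 3 endothelial UMIs were held by 20 of 101 injured and 7 of 65 uninjured members. Pericyte or smooth muscle markers summed to 485 CPM in injured members against 784 CPM in uninjured ones, beside 262 CPM and 278 CPM in other cells, and 20 injured and 9 uninjured members held at least 3 of their UMIs. Schwann cell markers summed to 100 CPM and 356 CPM, with Sox10 and Mbp at 0 in injured members. Mesothelial markers summed to 242 CPM and 501 CPM, beside 46.7 CPM and 20.2 CPM in other cells. At least 3 of their UMIs were held by 8 of 101 injured and 10 of 65 uninjured members. Krt19, given above among other perineurial genes, belongs to this list too, while Wt1 and Krt18 were at 0 in both pools of members. Red cell genes summed to 293 CPM and 3237 CPM. The part of these cells or their free RNA in the ratios was not tested. Among genes of other mesenchymal cells, Sfrp2 had 0 UMIs in injured members against 304 CPM in other injured cells, Wif1 had 38.4 CPM against 906 CPM, Dpt 20.7 CPM against 792 CPM, Ccl2 65.0 CPM against 1417 CPM, Lum 978 CPM against 5262 CPM and Col1a1 5237 CPM against 8866 CPM.

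The injury ratio of members was set beside that of the other mesenchymal cells. In other cells 194 of 2012 genes at the floor were higher in injured nerve (9.64%) and 190 were lower (9.44%). Of the 595 genes called in members, 73 higher and 48 lower genes were called the same way in other cells, and 9 were called the opposite way. A gene below 100 CPM in both pools of other cells could not be called there, as for Gpm6a, Gucy1b3, Tmem221 and Kcnj13. For 315 of the 595 the counting interval of the difference between both ratios excluded 0. The 595 were picked by the members' ratio, which is part of that difference, so an interval without 0 was favoured in advance. The share over all genes is not given, and nothing is read from this count. By the size of that difference, Fndc1 (5.42 on the log2 scale, 1.4 to 9.44), the epineurial score gene Pi16 (4.28), Cxcl14 (4.16), Clu (4.06), the score gene Lypd2 (4.0), Crispld1 (3.98) and Penk (3.92) stood highest on the members' side. The interval of Crispld1 included 0 (-0.05 to 8.01), and Lypd2 was lower in members, with 0.227 CPM in injured and 17.2 CPM in uninjured other cells. Clu, which encodes the chaperone clusterin, had 437 CPM in injured members and 109 CPM in uninjured ones, against 22.5 CPM and 96.0 CPM in other cells, and its log2 ratio was 2.01 in members and 2.39 in core members. Fndc1 had 183 CPM in injured members and 0 UMIs in uninjured members, against 284 CPM and 239 CPM in other cells.

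Tnc (-5.53), Mpzl2 (-4.79), Slc7a2 (-3.88), Tmem221 (-3.77) and Fam78b (-3.55) had the largest difference towards the other cells. For Tmem221 the interval included 0 (-8.3 to 0.76), with 2 UMIs in injured and 0 UMIs in uninjured other cells. Of the 5 genes, Tnc alone reached 100 CPM in the other cells. Tnc, the matrix protein tenascin-C of healing tissue, had 186 CPM in injured members and 36.3 CPM in uninjured ones, beside 1018 CPM and 4.43 CPM in other cells, and all 5 UMIs in uninjured members came from 1 cell. Slc7a2, a carrier of arginine and lysine, had 109 CPM in injured members and 290 CPM in uninjured ones, against 50.4 CPM and 8.86 CPM in other cells. Mpzl2 had 163 CPM in injured members and 414 CPM in uninjured ones, beside 7.94 CPM and 0.492 CPM in other cells.

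**Figure D5:**
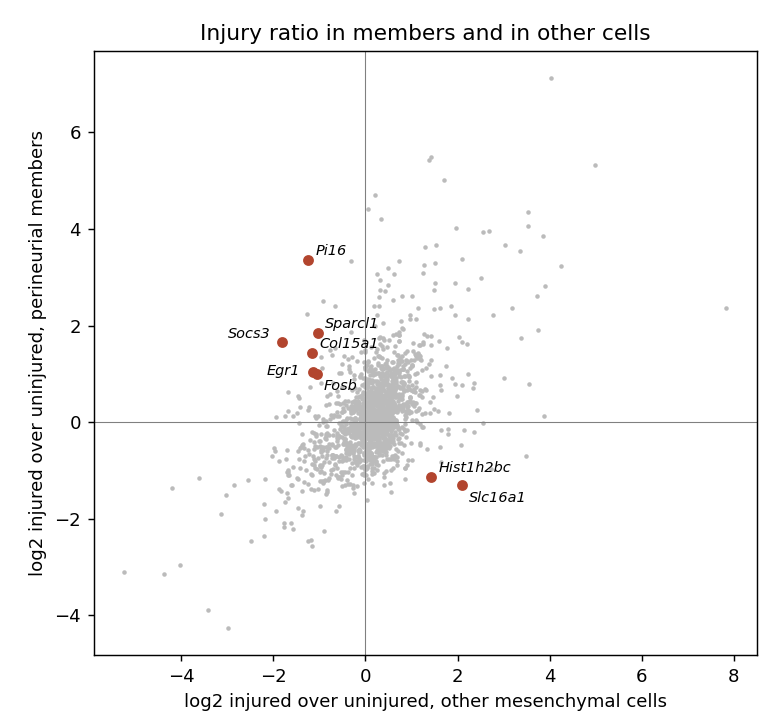
Log2 ratio of CPM, injured over uninjured, in perineurial members (vertical axis) and in the other mesenchymal cells (horizontal axis), for 1693 genes with at least 100 CPM in 1 pool of each comparison. Labelled red points are 8 of the 9 genes called higher in one set of cells and lower in the other.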

How the data were processed

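The authors deposited 4 tables of raw UMI counts (genes by cells), 2 with every barcode of an injured library and 2 with the mesenchymal cells of the injured and uninjured bead libraries. Per the submitters' processing notes, the genome build was mm10. Neither the aligner nor the authors' mesenchymal rule is given in the sources used here. All 1289 injured mesenchymal barcodes were found in the injured bead table with 0 differing counts. Depth per library was 4746263 UMIs (injured mesenchymal) and 2169121 UMIs (uninjured mesenchymal).

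For scoring, counts per 10000 UMIs were log1p-transformed, z-scored per gene over the cells of 1 table and averaged per set. Ratios were computed for the 17105 genes with a row in both tables, and 2876 genes with a row in the injured table alone were not compared. CPM values carry exact Poisson intervals, shares exact binomial intervals and ratios exact conditional binomial intervals. The difference between the ratios of members and other cells was computed with 0.5 added to each count and carries a Wald interval. Cells were not treated as replicates. No doublet caller was run. Computation used Python 3.11.15, numpy 2.4.6 and scipy, with R 4.3.3, edgeR 4.0.16 and DESeq2 1.42.0 for scaling factors. The calculations were tested on simulated data.

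Named genes were the 6 score genes, the 12 highest and 12 lowest ratios past the rule with at least 20 UMIs and no cell above 50% of the higher pool, the 12 highest over other cells in both tables, the 5 largest differences each way with Crispld1 and Penk, and list members past the rule with the extremes. Mitochondrial, ribosomal, haemoglobin and predicted genes and other cells' markers were left out. Genes shown not to pass, those of the paragraph on other cells' markers and the 7 barcodes outside the table were chosen after values were seen. The members and lists were chosen with earlier results of these data known. A few genes are counted but not reported here by name. Positions are from GENCODE vM21 (GRCm38). Alternatives tried were other score thresholds, joint scoring, scoring without Moxd1, thinning, leaving out cells with other cells' markers, other scalings and limits, core members and the FACS library.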

Additional observations from a re-analysis of the deposited data

Results flagged for a closer look

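Of the genes called in members, 9 were called the opposite way in the other mesenchymal cells, of which 8 are given here. Differences between the 2 sets of cells were not tested, since each group is 1 library. Pi16, an epineurial score gene, had a log2 ratio of 3.35 in members and -1.24 in other cells, with 50 UMIs in injured and 2 UMIs in uninjured members, and did not pass in core members. Col15a1 had 1.43 and -1.17, Sparcl1 1.84 and -1.03, Socs3 1.66 and -1.82, Egr1 1.05 and -1.13 and Fosb 1.0 and -1.06, and in core members none of these 5 passed the rule of size. Slc16a1 had -1.31 in members and 2.1 in other cells, with 114 CPM in injured nerve against 26.6 CPM in uninjured nerve. Hist1h2bc had -1.14 in members and 1.42 in other cells. Slc16a1 and Hist1h2bc did not pass in core members, with log2 ratios of -0.97 and -0.7.

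Outside the mesenchymal table, 7 of the injured bead library's 3011 other barcodes held at least 3 score genes. Their median depth was 12438 UMIs, and together they held 16 UMIs of Sfrp5 and, among endothelial genes, 140 UMIs of Pecam1, 132 of Egfl7 and 118 of Esam. What these barcodes are was not tested.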

How the results depend on the processing

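The injured share of members (7.84%) was 10.7% at a score threshold of 0.25, 5.28% at 1, 6.15% without cells holding markers of other cell types and 4.42% for core members, while the uninjured share stayed between 6.02% and 8.52% in every alternative run. Genes higher in injured members (266) numbered 125 at 3-fold, 462 with no filter on low counts and 503 with the FACS library in place of the injured bead library, and genes lower (329) numbered 207 with cells thinned to 1000 UMIs, 115 at 3-fold, 627 with no filter and 577 with the FACS library. Of the FACS calls, 192 higher and 266 lower genes were shared with the bead library. In the FACS library 68 of 863 cells called mesenchymal were members, 23 of them with at least 3 score genes, and their Sfrp5 level was 457 CPM. These 863 cells were called by a model of 2000 genes, since the FACS library has no mesenchymal table from the authors. In the injured bead library, split into 5 parts, the model's calls matched the authors' label in 96.2%. Its calls in the FACS library could not be checked against such a label. Genes higher in members than in other cells of injured nerve (234) numbered 353 at a threshold of 1, 359 when thinned, 132 at 3-fold and 1079 with no filter, and in uninjured nerve (646) 346 with TMM factors, 374 with DESeq2 size factors, 362 at 3-fold and 1519 with no filter. With the FACS library the list medians of basement membrane (0.06) and retinoid genes (0.70) were -0.83 and -0.19, and that of universal fibroblast genes (-0.59) was 1.01, and 0.82 without cells holding markers of other cell types. The limits of 3-fold and no filter change these counts by construction, and thinning leaves fewer cells and UMIs. For the others the cause was not tested. Of the ratios of named genes between injured and uninjured members, 433 kept their side of the rule, 43 no longer passed, 3 newly passed and 2 reversed. A change of sign counted as a reversal only where the ratio passed the rule before or after. The 433 can thus hold changed signs, as for Moxd1, with 177 CPM in FACS members against 276 CPM in uninjured members. Both reversals were Ptn, at -0.38 when the tables were scored together and -0.55 without Moxd1. For the genes named over other cells, 9 values in injured nerve no longer passed and none reversed. No paired analysis was possible because each group is 1 library. The pool of uninjured members is the smaller one, and a count of 0 there was set at 3 counts, or 21.8 CPM.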
